A study of Mus musculus with 4 samples.

Results

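The heat shock chaperone genes of the mouse were examined for peaks of phosphorylated ATF2 in blood stem cells. Members were the protein-coding genes whose symbols start with Hspa, Hspb, Hspd, Hspe, Hsph, Hsp90a or Dnaj, without Hspa5 and Dnajb9, which gave 71 of 21887 genes. A member was called marked in a library when a peak summit, the point of highest signal in a peak, lay within 1 kb of either end of the gene. The 71 genes were 10 HSP70 genes, 3 of the HSP110 branch, 2 cytosolic HSP90 genes, the 2 mitochondrial chaperonin genes, 8 small HSP genes, 44 J-protein genes, and 2 genes, Hspbp1 and Hspbap1, that share the Hspb prefix but encode binding proteins. The prefixes took in more than cytosolic and mitochondrial proteins. For example, Dnajb11, Dnajc1, Dnajc3 and Dnajc10 encode residents of the endoplasmic reticulum, and Hspb11 encodes a subunit of the intraflagellar transport machinery.

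HSP70 proteins bind unfolded stretches of other proteins in a cycle driven by ATP. J-proteins deliver the client and start ATP hydrolysis, and nucleotide exchange factors such as the HSP110 proteins release the client. HSP90 matures kinases, receptors and other clients handed over from HSP70, the chaperonin of Hspd1 and Hspe1 folds proteins inside mitochondria, and small HSPs hold unfolded proteins until they can be refolded. On heat and other stress many of these genes are driven by heat shock factor 1, which binds heat shock elements. ATF2 belongs to another family, the ATF/CREB leucine-zipper factors, and is phosphorylated by stress-activated kinases.

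The cells were blood stem cells of wild-type C57BL/6J mice, taken from bone marrow by the sort CD48-CD150+LSK, where LSK means no lineage markers but Sca-1 and Kit. CUT&Tag, in which an antibody guides a transposase to cut and tag nearby chromatin, was run with 2000 to 5000 cells and 17 to 20 PCR cycles per library. There were 2 antibody groups, phospho-ATF2 at T69/71 and phospho-ATF2 at S490/498, with 2 libraries each and no treatment named, and the sources used here give neither age nor sex of the mice. The titles write T69/71 and the antibody field T67/71. Nothing says that the libraries of 1 antibody came from separate mice, so their spread may be technical, and a library with a control antibody was not analysed here.

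The T69/71 lists held 12464 and 14716 peaks on the chromosomes, replicate 1 of S490/498 held 7132, and replicate 2 of S490/498 held 435. Median pileup, the number of fragments stacked at a summit, was 8 to 9 in the first 3 libraries and 16 in replicate 2 of S490/498. The lowest background coverage was 1.52 fragments in that last library against 0.0874 to 0.117 in the others, so it stood apart and is given separately throughout. Of 9 blood stem cell marker genes, 1 (Hlf) was marked in both T69/71 libraries, against 0 of 4 B lymphoid, 0 of 4 T lymphoid, 0 of 4 erythroid, 1 of 4 myeloid (Mpo) and 0 of 4 stromal and endothelial markers. The share of all protein-coding genes marked in this way was 21.1%. Peaks do not measure expression, so these counts do not check the cell type.

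Most chaperone genes carried a T69/71 peak. In replicate 1 of T69/71, 41 of the 71 members were marked (57.7%), against 27.5% of all protein-coding genes, and in replicate 2 it was 42 (59.2%), against 27.9%. Both T69/71 libraries marked 39 members (54.9%, exact binomial 95% interval 42.7 to 66.8, which covers counting error only), against 21.1% of all genes. Replicate 1 of S490/498 marked 32 members (45.1%, interval 33.2 to 57.3), against 17.9%. Replicate 2 of S490/498 marked 1 member, Dnajc11 (1.41%), against 0.224%, and Dnajc11 was thus the sole member marked in both S490/498 libraries (all genes 0.178%) and in all 4 libraries (all genes 0.164%).

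The S490/498 marks lay within the T69/71 marks. All 32 members marked in replicate 1 of S490/498 were also marked in both T69/71 libraries, whereas over all genes this held for 3119 of 3917 (79.6%). A further 7 members were marked in both T69/71 libraries and in no S490/498 library (9.86%, against 6.85% of all genes for both T69/71 libraries without replicate 1 of S490/498). These were Hspa4l, Hsph1, Dnajc2, Dnajc3, Dnajc4, Dnajc18 and Dnajc30. The 2 percentages are shares of all members and of all genes, marked or not. Of the 39 members marked in both T69/71 libraries, 82.1% were also marked in replicate 1 of S490/498. Among all genes marked in both T69/71 libraries it was 67.5%. Another 5 were marked in 1 T69/71 library alone (7.04%, against 10.6%), namely Dnajc9 and Dnajc19 in replicate 1 and Hspa13, Dnajc10 and Dnajc16 in replicate 2. None were marked in replicate 1 of S490/498 without T69/71 (all genes 1.09%). No library marked 27 members, against 64.6% of all genes, which left 44 marked in at least 1 library (62.0%, against 35.4%).

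Many of these ends are shared with a neighbouring gene, and a peak there cannot be assigned to 1 of the pair. With every peak near the end of another protein-coding gene left out, 23 members (32.4%) remained marked in both T69/71 libraries, against 13.8% of all genes. In replicate 1 of S490/498 the count was 19 (26.8%), against 11.4%. Chaperone promoters were also richer in CpG than those of most genes, with a median ratio of observed to expected CpG of 0.828 against 0.610. Among genes with a ratio of at least 0.6, a limit chosen after seeing the data, 27 of 44 members (61.4%) were marked in both T69/71 libraries, against 37.2%.

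**Figure D1:**
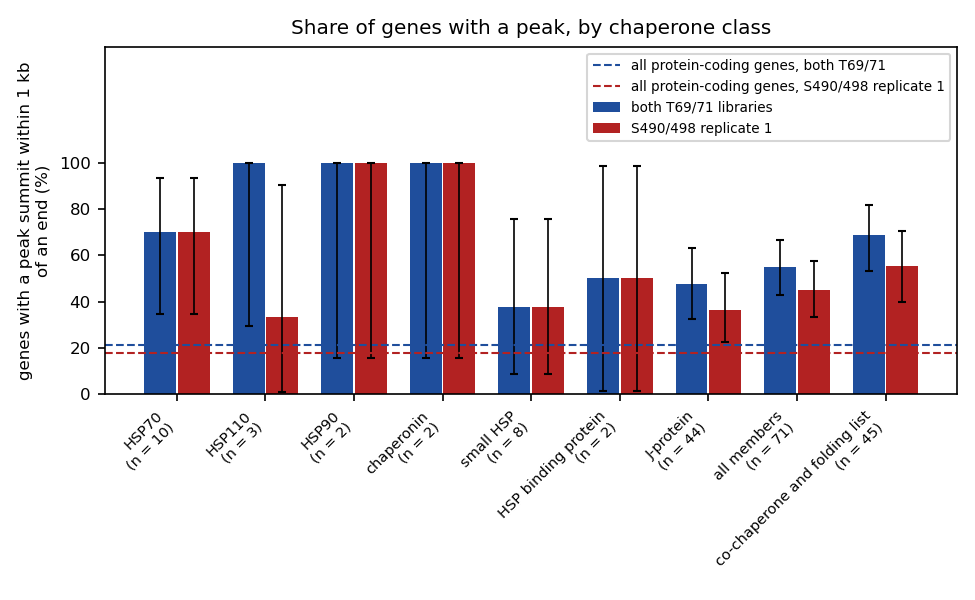
Share of genes with a peak summit within 1 kb of an end (%), by chaperone class and for the list of co-chaperone and folding genes; bars are shares of the class, vertical lines exact binomial 95% intervals, and dashed lines the shares of all protein-coding genes. All members together stand at 54.9% (T69/71) and 45.1% (S490/498 replicate 1), above the dashed lines at 21.1% and 17.9%, while the intervals of the smallest classes span most of the scale.

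Among the HSP70 genes, 7 of 10 were marked in both T69/71 libraries (70%, interval 34.8 to 93.3), against 21.1% of all genes. The same 7 were marked in replicate 1 of S490/498, against 17.9%. Of these, Hspa1a and Hspa1l were marked by 1 shared peak per library, so the 7 do not all rest on separate sites. Hspa8, the constitutive cytosolic HSP70, had the best mean rank of −log10 q among members of this class in the T69/71 lists. It lies on chromosome 9, 40801276 to 40805202, and its fold enrichment, the authors' ratio of signal to local background at the summit, was 10.4 and 10.5 with T69/71 and 11.1 with S490/498. Sets of 3 values are in the order T69/71 replicate 1, T69/71 replicate 2, S490/498 replicate 1. The peaks rested on 75, 54 and 45 fragments, with −log10 q of 48.4, 35.6 and 31.5, and their summits lay 30, 128 and 153 bp outside the lower end of the gene. These were the deepest pileups of any member in each of those 3 libraries.

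Hspa9, the mitochondrial HSP70 that pulls proteins through the inner membrane, had folds of 14.7 and 11.3 with T69/71 and 11.2 with S490/498. Hspa14, which works at the ribosome together with the J-protein Dnajc2, had 12.1, 12.7 and 10.1, at an end shared with the secreted factor gene Cdnf. Hspa2, known for its role in sperm development, had 11.8, 10.3 and 6.68. At Hspa9 and Hspa2 replicate 1 of T69/71 was the highest of the 3, whereas Hspa8 was highest with S490/498.

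The stress-inducible pair Hspa1a and Hspa1b and the testis gene Hspa1l stand next to each other on chromosome 17. Hspa1a (34969359 to 34972156) and Hspa1l (34972703 to 34979228) share 1 peak between their starts, with folds of 11.1 and 9.76 with T69/71 and 12.2 with S490/498. Hspa1b (34956429 to 34959238) had its own weaker peak, with folds of 5.73, 6.31 and 7.09 on 10, 11 and 11 fragments. The promoters of the 2 inducible copies are shown because they are close to identical, with 247 of 250 bases alike (98.8%). Reads from such copies can be placed on either, so the split of signal between them is uncertain, and how reads that map more than once were treated is unknown here. Capitals mark the 3 bases that differ between the 250 bases before each start (RefSeq, GRCm38.p6, minus strand, chr17:34972157-34972406 and chr17:34959239-34959488).
Hspa1a: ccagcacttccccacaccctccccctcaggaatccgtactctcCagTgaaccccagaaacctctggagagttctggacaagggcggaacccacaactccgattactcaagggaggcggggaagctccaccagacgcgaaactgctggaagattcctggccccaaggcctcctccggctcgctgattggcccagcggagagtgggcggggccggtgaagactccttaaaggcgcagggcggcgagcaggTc
Hspa1b: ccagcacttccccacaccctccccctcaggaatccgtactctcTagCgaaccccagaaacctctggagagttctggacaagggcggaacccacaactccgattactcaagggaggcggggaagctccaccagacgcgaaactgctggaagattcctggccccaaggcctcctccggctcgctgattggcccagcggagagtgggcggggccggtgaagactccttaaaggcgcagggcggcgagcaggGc
The Hspa1b summits, 205, 200 and 234 bp before the start, fell inside the window printed. Those assigned to Hspa1a lay farther out, 362, 287 and 293 bp before its start, and 185, 260 and 254 bp before the start of Hspa1l.

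The other 3 HSP70 genes had fewer peaks or none. Hspa13, whose product associates with the endoplasmic reticulum, was marked in replicate 2 of T69/71 alone, with a fold of 8.05 on 10 fragments. The distant relatives Hspa12a and Hspa12b were marked in no library, although Hspa12a had a summit inside the gene, 17.9 kb from its nearer end, in replicate 1 of T69/71 (fold 4.48).

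All 3 HSP110 genes, which encode exchange factors for HSP70, were marked in both T69/71 libraries, and 1 of them in replicate 1 of S490/498. The shares of all genes were 21.1% and 17.9%, and with 3 genes these counts say little. Hspa4 had folds of 11.0 and 14.9 with T69/71 and 9.86 with S490/498, on 26, 33 and 17 fragments. The summits lay 160, 160 and 175 bp before its start, so the 3 libraries placed them close together. Hspa4 lies on chromosome 11, 53259814 to 53300479, and the 250 bases before its start are shown because all 3 summits fall in them (RefSeq, GRCm38.p6, minus strand, chr11:53300480-53300729). Capitals mark the CRE half-site TGACG or its other strand CGTCA, the core of the element that ATF/CREB factors bind; the matches start at -69 and -56 from the start.
Hspa4: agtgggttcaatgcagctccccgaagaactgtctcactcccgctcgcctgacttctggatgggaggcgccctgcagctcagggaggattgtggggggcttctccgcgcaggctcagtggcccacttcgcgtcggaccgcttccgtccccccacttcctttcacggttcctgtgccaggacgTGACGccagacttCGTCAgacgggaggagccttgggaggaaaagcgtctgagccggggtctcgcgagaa
Both other genes had weaker peaks and no S490/498 peak. Hspa4l had folds of 5.90 and 6.74 on 9 fragments each, with summits 869 and 927 bp inside its lower end. From its nearest annotated start they lay at -244 and -186 bp. Hsph1, the inducible member, had 7.79 and 8.09 on 10 and 11 fragments, with summits 7 and 222 bp outside its upper end. These pileups stand close to the median of the T69/71 lists.

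The 2 cytosolic HSP90 genes were marked in all libraries but replicate 2 of S490/498. The inducible Hsp90aa1 (chromosome 12, 110691036 to 110696395) had folds of 10.1 and 8.44 with T69/71 and 10.1 with S490/498, on 41, 20 and 28 fragments. The constitutive Hsp90ab1 (chromosome 17, 45567778 to 45573261) had 10.5, 10.9 and 9.47 on 44, 30 and 32 fragments. All 6 summits lay 5 to 126 bp outside the upper end of their gene, and neither end was shared with another protein-coding gene. At Hsp90aa1 the S490/498 value was close to that of replicate 1 of T69/71 and above that of replicate 2, and at Hsp90ab1 it was the lowest of the 3.

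The mitochondrial chaperonin subunit Hspd1 and its lid Hspe1 are transcribed in opposite directions from 1 promoter on chromosome 1, and 1 peak per library marked both. Its fold was 12.3 and 13.4 with T69/71 and 14.2 with replicate 1 of S490/498, the highest of any member in the latter list, on 42, 29 and 32 fragments. The summits lay 112, 115 and 128 bp before the start of Hspe1 (55088148 to 55091317), close together in all 3 libraries. The count of marked chaperonin genes, 2 of 2, therefore rests on 1 site.

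Hspd1 and Hspe1 were among the few members with an exact match to the heat shock element in the promoter window. This window ran from 250 bases before to 50 after an annotated start. The element was searched on both strands as GAA, TTC and GAA with any 2 bases between neighbours, and 4 of the 57 members in the RefSeq promoter table held it: Hspd1, Hspe1, Hsph1 and Dnajb6. Over all genes in that table it was 104 of 17492 (0.595%), and over those marked in both T69/71 libraries 0.593%. The sites are shown with the element in capitals, beside the 1 member, Dnajc27, that held the full palindromic CRE, TGACGTCA, which was in 2.54% of all promoters and in 5.93% of those marked in both T69/71 libraries. Inexact copies of the heat shock element were not counted, so a member without a match may still hold a variant of it. Members without an entry in that table, such as Hspa8 and Hsp90aa1, were not searched. Hspd1 and Hspe1 hold the same site. A match to these letters is a description of the sequence and not a bound site. Each is given as 30 bases of RefSeq, GRCm38.p6: for Hspe1 the plus strand of chr1:55088053-55088082, for Dnajb6 the plus strand of chr5:29735844-29735873, for Hsph1 the minus strand of chr5:149636279-149636308, and for Dnajc27 the plus strand of chr12:4082547-4082576.
Hspe1: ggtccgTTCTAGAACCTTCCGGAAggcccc
Dnajb6: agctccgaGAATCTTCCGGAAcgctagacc
Hsph1: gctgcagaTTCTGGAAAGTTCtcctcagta
Dnajc27: gggccccgcaaTGACGTCAcggcgcgcagt
At Hspe1 the capitals hold 2 overlapping matches, from -89 to -72 relative to its start, and the summits of T69/71 replicates 1 and 2 and S490/498 replicate 1 lay 17, 20 and 33 bp from the window printed. At Dnajb6, a J-protein that keeps aggregation-prone proteins soluble, both T69/71 summits fell inside the 30 bases and the S490/498 summit 91 bp away. At Hsph1 the element lies after an annotated start, from 16 to 28, and the T69/71 summits were 197 and 412 bp from the window printed. At Dnajc27, a small GTPase with a J domain, the CRE runs from -16 to -9, and the summits lay 154, 275 and 145 bp from the window printed.

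Of the 8 genes counted as small HSP genes, 3 were marked in both T69/71 libraries (37.5%, interval 8.52 to 75.5), against 21.1% of all genes. The same 3 were marked in replicate 1 of S490/498, against 17.9% of all genes. The interval covers the share of all genes in both cases. Hspb11, the intraflagellar transport gene, had folds of 8.86, 11.9 and 13.3 at an end shared with Lrrc42. Hspb6, a muscle small HSP, had 6.28, 8.15 and 5.06 at an end shared with Proser3. Hspb7, the cardiovascular small HSP, had the weakest peaks of the class, with 4.08, 5.79 and 4.83 on 5, 7 and 6 fragments, and these lay 521 to 646 bp past its upper end, over 5 kb from its start. Thus Hspb11 and Hspb6 shared their marked end with another gene, and the Hspb7 peak was not at its start.

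The ubiquitous small HSP genes Hspb1 and Hspb8 were not marked, nor were Hspb2, Hspb3 and Hspb9. Hspb1 encodes HSP27, a stress-inducible chaperone, and its nearest summit was 45.2 and 6.92 kb away with T69/71 and 45.1 and 73.1 kb away with S490/498. Its 250 bases before the start are printed as the counterpart to the marked promoters (RefSeq, GRCm38.p6, plus strand, chr5:135887669-135887918), with the CRE half-site at -141 in capitals.
Hspb1: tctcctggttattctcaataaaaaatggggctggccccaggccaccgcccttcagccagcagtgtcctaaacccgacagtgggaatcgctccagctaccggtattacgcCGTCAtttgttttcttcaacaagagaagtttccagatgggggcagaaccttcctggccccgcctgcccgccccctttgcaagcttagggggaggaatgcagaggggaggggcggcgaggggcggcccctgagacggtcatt
The window has the half-site that Hspa4 also holds, and no peak in any of the 4 libraries. Of the 2 binding proteins, Hspbp1, an exchange factor for HSP70, was marked with folds of 13.5, 10.9 and 8.96, whereas Hspbap1 was not marked, with its nearest summits 3.90, 13.8 and 4.39 kb away in the same order.

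**Figure D2:**
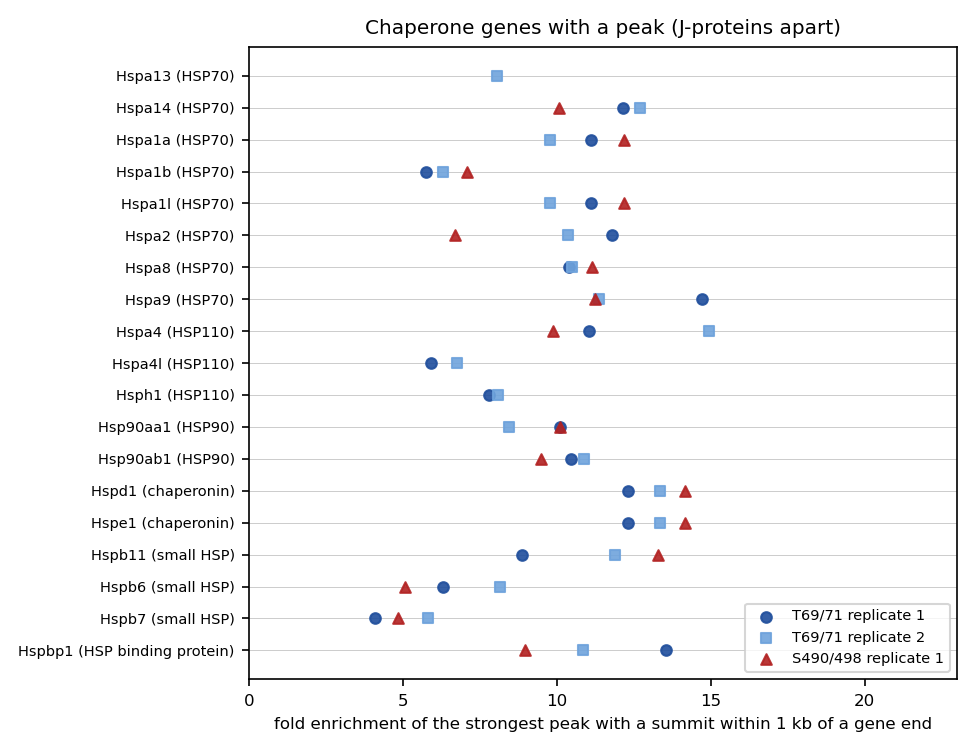
Fold enrichment of the strongest peak within 1 kb of a gene end (x axis, the authors' ratio) for each marked chaperone gene other than J-proteins (rows), with 1 symbol per library; replicate 2 of S490/498 has no point because it marked none of these genes. Hspa9 (14.7 in replicate 1 of T69/71) and Hspa4 (14.9 in replicate 2) reach farthest right, Hspb7 lies at the left with 4.08 to 5.79, and Hspa4l, Hsph1 and Hspa13 lack an S490/498 symbol.

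J-proteins were marked less widely than the other members, by count. Both T69/71 libraries marked 21 of 44 (47.7%), against 18 of 27 other members (66.7%), and replicate 1 of S490/498 marked 16 of 44 (36.4%) against 16 of 27 (59.3%). The difference between these shares was not tested. By type, 3 of 4 type A, 7 of 12 type B and 11 of 28 type C genes were marked in both T69/71 libraries, and 3, 7 and 6 in replicate 1 of S490/498, beside 21.1% and 17.9% of all genes. At 6 of 28 (21.4%), type C was near the share of all genes in the latter library. The 5 J-proteins marked in both T69/71 libraries without S490/498 were type C, which makes up 28 of the 44 genes. They were 17.9% of type C (interval 6.06 to 36.9), against 6.85% of all genes, a share that the interval covers.

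Dnajb1, the main cytosolic J-protein partner of HSP70 and a heat shock gene, had the highest S490/498 fold of the J-proteins. It lies on chromosome 8, 83608175 to 83612653, and had folds of 12.3 and 12.9 with T69/71 and 12.0 with S490/498, on 46, 34 and 32 fragments. The summits lay 16 bp inside the gene, 17 bp outside and 68 bp outside, so all 3 libraries placed the peak at the start. The 250 bases before the start are shown with the CCAAT box (ATTGG here, at -151) and the CRE half-site (at -11) in capitals (RefSeq, GRCm38.p6, plus strand, chr8:83607925-83608174).
Dnajb1: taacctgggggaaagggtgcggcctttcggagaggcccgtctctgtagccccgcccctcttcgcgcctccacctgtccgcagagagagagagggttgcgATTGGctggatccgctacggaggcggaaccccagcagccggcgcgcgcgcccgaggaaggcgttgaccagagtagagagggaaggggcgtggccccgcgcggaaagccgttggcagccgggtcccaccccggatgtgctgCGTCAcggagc
Among the type A genes, Dnaja2, a cytosolic J-protein, had folds of 9.22 and 8.58 with T69/71 and 9.34 with S490/498, and its summits lay 70, 69 and 69 bp before the start, the closest placement among members marked in those 3 libraries. Its window is printed for that reason, with CRE half-sites at -129 and -29 in capitals (RefSeq, GRCm38.p6, minus strand, chr8:85555362-85555611).
Dnaja2: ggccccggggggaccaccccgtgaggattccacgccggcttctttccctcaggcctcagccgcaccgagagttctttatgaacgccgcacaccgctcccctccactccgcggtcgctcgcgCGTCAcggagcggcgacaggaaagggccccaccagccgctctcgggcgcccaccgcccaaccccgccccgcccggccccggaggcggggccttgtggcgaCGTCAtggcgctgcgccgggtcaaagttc
The summits lay between those half-sites. Dnaja1, its close relative, had 7.12, 7.0 and 6.71 at an end shared with the DNA repair gene Aptx, and the mitochondrial Dnaja3 had 5.95, 5.67 and 7.49. Dnaja4 was not marked in any library.

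The other type B genes covered a range of strengths. Dnajb4 had folds of 8.47 and 11.5 with T69/71 and 5.50 with S490/498, at an end shared with Fubp1. Dnajb11, a cofactor of the endoplasmic HSP70, had 10.2, 8.48 and 8.37, at an end shared with Tbccd1. Dnajb2 had 9.55, 7.19 and 7.54, Dnajb5 had 8.87, 7.21 and 8.28, and Dnajb6 had 8.65, 7.0 and 5.82. At Dnajb4 and Dnajb6 the S490/498 fold was the lowest of the 3, whereas at Dnajb2 and Dnajb5 it lay between the T69/71 values. Dnajb12, which sits in the membrane of the endoplasmic reticulum, had a peak at each end in all 3 libraries, with folds of 5.42, 6.06 and 5.47 at the start and 6.35, 6.77 and 6.77 past its other end.

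Of the type C genes, Dnajc11, a protein of mitochondrial membranes, was marked most often. It lies on chromosome 4, 151933720 to 151981959. Its folds were 7.85 and 13.2 with T69/71 and 7.13 and 5.55 with S490/498, on 12, 20, 8 and 13 fragments, with summits 157, 187, 364 and 477 bp outside the lower end. The replicate 2 peak of S490/498 had a −log10 q of 4.76, and ranked 262 of the 435 peaks of its list, so the 1 member marked in that library was not among its strong peaks.

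Dnajc7, which carries clients between HSP70 and HSP90, had folds of 7.66, 10.3 and 5.11 at an end shared with Nkiras2. The endosomal Dnajc13 had 7.16, 6.94 and 5.69, Dnajc17 had 8.66, 8.09 and 7.13 at an end shared with Zfyve19, and Dnajc27 had 7.29, 7.02 and 7.01. Dnajc14 had 6.57, 6.57 and 5.59 near an end of Tmem198b, but its peak in replicate 1 of T69/71 overlapped neither of the others. The S490/498 fold was the lowest of the 3 in each of these 5 genes, although at Dnajc27 the values were nearly equal.

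Dnajc3, an endoplasmic inhibitor of eIF2 alpha kinases, had the highest fold of any member. It lies on chromosome 14, 118937932 to 118981702, with a peak at each end in both T69/71 libraries and none in S490/498. At the start the folds were 7.77 and 11.5, with summits 159 and 147 bp upstream. Past the other end, where the gene lies close to Uggt2, a glycoprotein folding sensor, they were 10.2 and 21.1 on 17 and 40 fragments. The value of 21.1 was also the highest replicate 2 fold among the 1499 genes marked in both T69/71 libraries and not in replicate 1 of S490/498. Dnajc3 was 1 of 4 members, with Dnajc2, Dnajc11 and Dnajc30, whose T69/71 folds differed by over 1.5-fold. These summits lay 833 and 978 bp past the gene end, close to the 1 kb limit, and the nearest S490/498 summit was 125 kb away in replicate 1.

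The remaining T69/71 marks had folds between 3.54 and 9.42. Dnajc30, a mitochondrial protein, had folds of 7.43 and 4.69 (end shared with Bud23), Dnajc4 had 6.89 and 8.27 (Nudt22), and Dnajc2, the ribosomal partner of Hspa14, had 3.54 and 5.47 (Psmc2). Dnajc18 had 6.15 and 5.74 at opposite ends of the gene, which are different sites. In 1 T69/71 library alone, Dnajc19, a mitochondrial import factor, had 4.42, the histone chaperone Dnajc9 had 3.74, the disulphide reductase Dnajc10 had 8.25, and Dnajc16 had 9.42. The last had a −log10 q of 16.8 on 25 fragments in replicate 2 and no peak in replicate 1, so absence from a list did not go only with weak peaks.

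**Figure D3:**
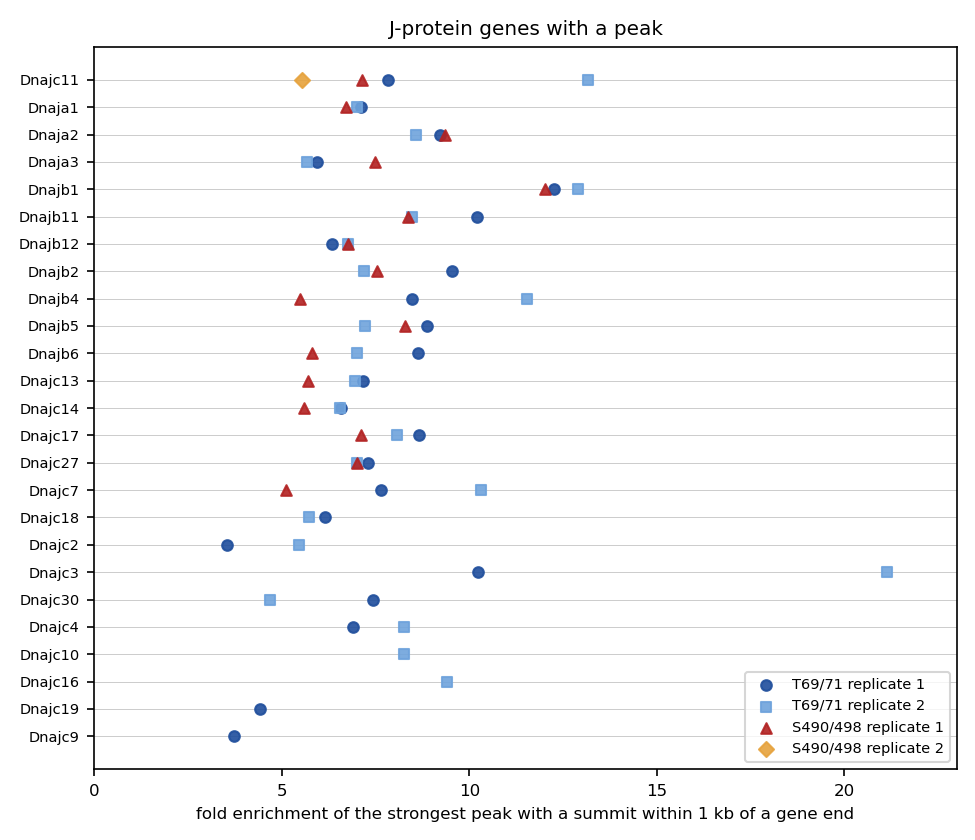
Fold enrichment of the strongest peak within 1 kb of a gene end (x axis, the authors' ratio) for each marked J-protein gene (rows), with 1 symbol per library, ordered by how many libraries marked the gene. Dnajc3 at 21.1 in replicate 2 of T69/71 stands apart, the 16 genes in the upper rows have an S490/498 symbol, and Dnajc11 alone has a symbol from replicate 2 of S490/498 (5.55).

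The 27 members without a peak included Dnaja4, 5 type B and 13 type C J-proteins, 2 HSP70 genes, 5 small HSP genes and Hspbap1. The type B genes were Dnajb3, Dnajb7, Dnajb8, Dnajb13 and Dnajb14, of which Dnajb13 belongs to the sperm tail. The type C genes were Dnajc1, Dnajc5, Dnajc5b, Dnajc5g, Dnajc6, Dnajc8, Dnajc12, Dnajc15, Dnajc21, Dnajc22, Dnajc24, Dnajc25 and Dnajc28, among them Dnajc5 of synaptic vesicles and Dnajc6, which strips clathrin coats. Their median distance to the nearest summit was 17.9 and 11.4 kb with T69/71 and 18 kb in replicate 1 of S490/498. Dnajc1, an endoplasmic J-protein, came closest to the limit, with summits 1291, 1240 and 1296 bp from its end and folds of 10.9, 4.75 and 8.46. Dnajc5 had summits 1678, 1579 and 1614 bp inside the gene and folds of 5.62, 7.78 and 4.62. On the other side of the limit, Hspa4l was counted at 869 and 927 bp from its end and Dnajc18 at 994 bp. The Hspa4l summits were nearer to an annotated start, at -244 and -186 bp.

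Where a member was marked in both T69/71 libraries, the peaks mostly lay at 1 place. Of 39 such members, 36 had overlapping peaks, and the 3 without were Dnajc2, Dnajc14 and Dnajc18. The gap between the strongest summits had a median of 73 bp and was at most 100 bp in 26 members. Of the 32 members marked in replicate 1 of both antibodies, 31 had overlapping peaks. The promoter table gave a start for 33 of the 41 members marked in replicate 1 of T69/71, and 29 of the 33 strongest summits lay within 1 kb of it and 25 before it. In replicate 2 it was 30 and 27 of 33, and in replicate 1 of S490/498 25 and 23 of 27. Median positions of all strongest summits with a known start were -104, -75 and -129 bp from the start. Marking itself required a summit within 1 kb of a gene end, so closeness to a start and overlap of peaks follow in part from the rule. No share of all genes stands beside these counts, so they describe the members and show no trait particular to them.

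**Figure D4:**
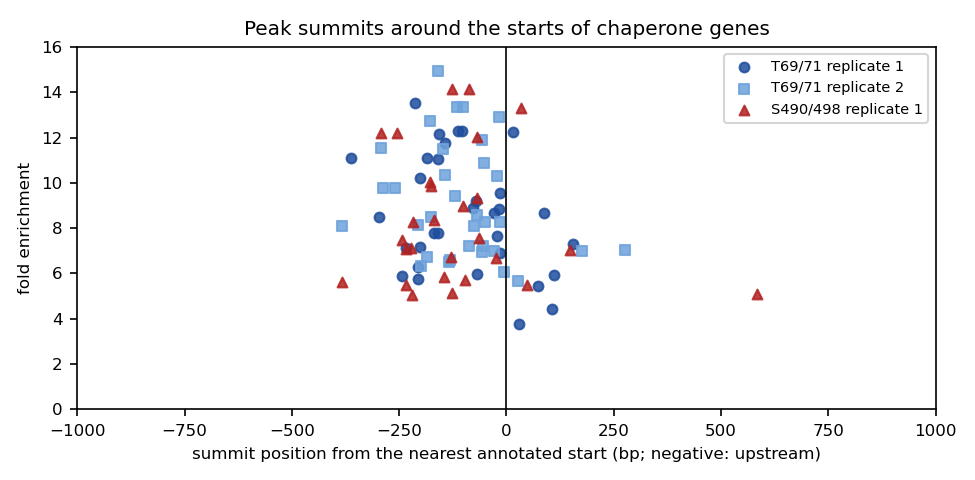
Fold enrichment (y axis, the authors' ratio) against the position of the summit from the nearest annotated start (x axis, bp, negative values before the start), for every peak at a chaperone gene with a known start within 1 kb, with 1 symbol per library. Most points lie to the left of the start line. The medians in the text, -104, -75 and -129 bp, are over the strongest peak per gene and include peaks beyond 1 kb that are not drawn.

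The strongest peaks of marked chaperone genes had higher median folds than all peaks at gene ends, but the sets were built differently. Members count 1 strongest peak per gene, and a shared peak counts for each of its genes. The gene-end set counts each peak once, weaker second peaks included. The median fold of the marked members was 8.65 in replicate 1 of T69/71, 8.35 in replicate 2 and 7.91 in replicate 1 of S490/498, against 6.99, 7.47 and 6.80 over all gene-end peaks of the same lists. Median pileup was 17, 17 and 14.5 fragments, against 11, 11 and 10. With the strongest peak per gene on both sides, T69/71 medians were 9.04 and 9.17 for members with a peak in replicate 1 of S490/498. All such genes had 9.13 and 9.25. Without that peak it was 6.89 and 6.74 for members, against 6.22 and 7.02. These medians describe the members that passed the peak caller and were not tested. By class, median fold was 11.1, 10.1 and 11.1 for HSP70 genes, 10.3, 9.66 and 9.78 for HSP90 genes and 7.43, 7.21 and 7.07 for J-proteins. The HSP70 and HSP90 medians were above, and the J-protein medians close to, those of all gene-end peaks.

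Folds varied among members in a similar way in the 3 libraries. Between the T69/71 libraries, Pearson's r was 0.72 and Spearman's rho 0.80 over 39 members, and 35 of the 39 pairs were within 1.5-fold. Over all 4618 genes marked in both, r was 0.60 and rho 0.59. Between the first replicates of each antibody, r was 0.74 and rho 0.76 over 32 members (0.75 and 0.74 over 3470 genes), and with replicate 2 of T69/71 both were 0.61 (0.59 and 0.58 over 3328 genes). These correlations are across genes, which are not independent replicates, and the points share their libraries, shared peaks and base composition.

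By median, members marked in replicate 1 of S490/498 had the higher T69/71 folds. The median was 9.04 and 9.17 in the T69/71 libraries for the 32 with an S490/498 peak, and 6.89 and 6.74 for the 7 without. All genes showed the same order, with 9.13 and 9.25 for 3119 genes and 6.22 and 7.02 for 1499 genes. Dnajc3 was the exception among the 7. The mean share of members marked was 58.5% for T69/71 and 23.2% for S490/498, a difference of 35.2 percentage points (18.6 over all genes). It was 13.4 points without replicate 2 of S490/498. With 2 libraries against 2 the smallest p of an exact two-sided permutation test is 0.333, so the antibodies could not be shown to differ. The lists also differ in length and background. With lists of equal length the difference was 26.8 points, but that setting did not bring the other lists down to the length of replicate 2 of S490/498. The part of the short list and of background in this difference was not tested.

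The promoters of chaperone genes were rich in CpG, a dinucleotide concentrated in the promoters of broadly expressed genes. RefSeq windows were found for 57 of the 71 members and 17492 of all 21887 genes. The median observed-to-expected ratio of CpG was 0.828 for the members against 0.610 for all genes. Among members it was 0.878 for the 31 marked in both T69/71 libraries and 0.629 for the 22 marked in none, and over all genes the same groups had 0.834 and 0.363. Unmarked chaperone genes thus had a higher median than unmarked genes in general. The inducible genes Hspa1a and Hspa1b were low among the marked members, at 0.542 and 0.577, and Hspb7 lowest at 0.284.

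**Figure D5:**
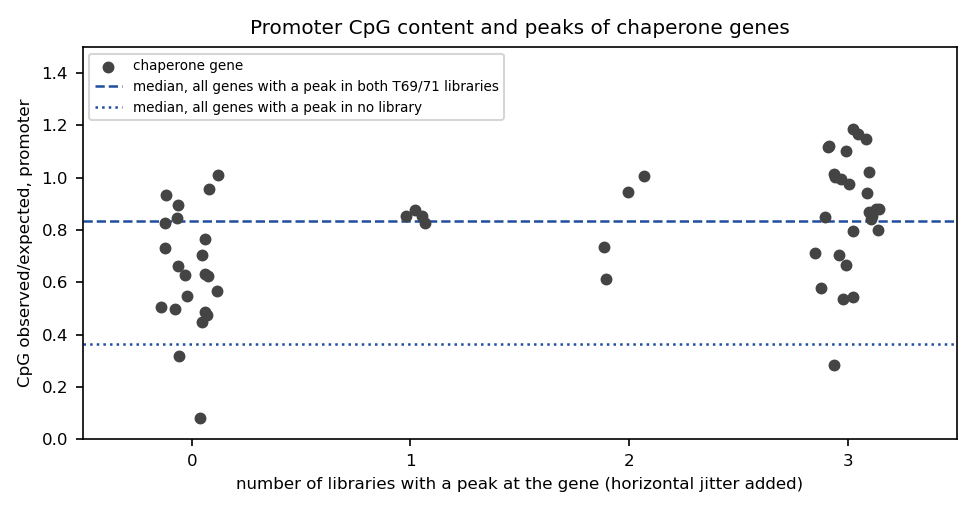
Ratio of observed to expected CpG in the promoter window (y axis) of the 57 chaperone genes with a sequence (points), by how many libraries marked the gene (x axis, with horizontal jitter), beside the medians of all genes marked in both T69/71 libraries (dashed, 0.834) and in none (dotted, 0.363). Most unmarked chaperone genes lie above the dotted line, and the genes marked in 3 libraries spread around and above the dashed line.

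Short motifs were counted on both strands of the same windows. The CRE half-site, TGACG or CGTCA, which the full CRE also contains, was in 31 of 57 members (54.4%) against 26.2% of all promoters. It was in 19 of 31 members marked in both T69/71 libraries (61.3%) and in 9 of 22 marked in none (40.9%), while over all genes the shares were 44.8% and 18.5%. The AP-1 element, TGACTCA or TGAGTCA, was in 0 of 57 members and in 5.40% of all promoters. The CCAAT box, CCAAT or ATTGG, was in 17 of 31 marked members (54.8%) and 4 of 22 unmarked ones (18.2%), against 48.8% and 40.8% over all genes. The half-site TGACG itself holds a CpG, and the part of CpG content in these shares was not tested.

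Other genes of protein folding, in a list of 45 chosen by their known function, were also marked in most cases. Both T69/71 libraries marked 31 (68.9%, against 21.1% of all genes) and replicate 1 of S490/498 marked 25 (55.6%, against 17.9%). HSP70 co-chaperones were marked in 8 of 11 by both T69/71 libraries and 6 of 11 by S490/498. Among them the cofactor St13 had folds of 14.9, 15.4 and 10.0, the mitochondrial exchange factor Grpel1 had 9.41, 10.4 and 11.2, and the ubiquitin ligase Stub1 had 7.20, 11.6 and 8.14. The exchange factor Bag1 had 11.0, 18.3 and 9.77 at an end shared with Chmp5, and Bag3, itself a heat shock gene, had 4.99 and 6.51 and no S490/498 peak.

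HSP90 co-chaperones were marked in 9 of 11 by both T69/71 libraries and 7 of 11 by S490/498, beside 21.1% and 17.9% of all genes. Stip1, which joins HSP70 to HSP90, had 10.4, 13.0 and 8.65, Sgta had 16.3, 9.72 and 11.5, and the kinase adaptor Cdc37 had 4.86, 6.00 and 5.47. All 5 mitochondrial genes (Trap1, the HSP90 of mitochondria, and the protease or disaggregase genes Lonp1, Clpb, Clpp and Clpx) were marked by both T69/71 replicates and by replicate 1 of S490/498. Lonp1 had 14.1, 14.4 and 10.1 and Trap1 had 11.7, 7.51 and 9.34. All 8 subunit genes of TRiC, the cytosolic chaperonin, were marked by both T69/71 libraries and 6 by S490/498, with Cct6a at 14.5, 8.51 and 10.5 and Cct5 at 7.21, 4.60 and 3.85. Prefoldin, which passes clients to TRiC, had 0 of 6 genes marked by both T69/71 libraries, against 21.1% of all genes. With 6 genes this count says little. Pfdn2 was marked in replicate 1 and Pfdn5 in replicate 2.

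Of the heat shock factors, Hsf1, the main activator of the stress-inducible chaperones, was marked with folds of 9.09 and 10.8 with T69/71 and 6.25 with S490/498, at an end shared with the ribosome assembly gene Bop1. Hsf2, Hsf4 and the inhibitor gene Hsbp1 had no peak in these libraries, so 1 of 4 genes in this group was marked (25%), near the 21.1% of all genes marked in both T69/71 libraries.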

How the data were processed

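CUT&Tag peak lists of 2 phospho-ATF2 antibodies, with 2 libraries each, were used as deposited, 1 list per library. The submitters' processing notes name mm10 as the build and list FastQC 0.11.5, Bowtie2 2.2.9, MACS2 and ChIPseeker; MACS2 settings and the handling of duplicate and multiply mapped reads are not given in the sources used for this work. The deposited lists hold, per peak, the authors' fold enrichment, a ratio of signal to local background at the summit, with −log10 p and −log10 q values. The deposited score was 10 times −log10 q without its decimals in nearly all peaks (99.8% in the list with the lowest share). Lists held peaks with q under 0.05. Folds were used to describe peaks; each is scaled to local background in 1 library, and comparing folds between lists is descriptive. The reads behind a list are not recorded in it, so the pileup was recovered by solving fold = (pileup + 1)/(background + 1) together with the Poisson p, within 0.001 on the −log10 scale, which succeeded for 99.8% to 100% of peaks.

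Gene ends came from the RefSeq gene table of GRCm38.p6 (chromosomes 1 to 19, X and Y), which gives no strand; starts and strands came from the RefSeq promoter windows, 250 bases before to 50 after a start. A gene was marked when a summit lay within 1 kb of either end. Neighbours at shared ends were sought among protein-coding genes only. The strongest peak was the one with the highest −log10 q. Members, lists and alternatives were chosen with earlier results of these data known, so counts are given beside those of all genes and without a test over the members. All members of the smaller classes, and J-proteins marked in at least 3 libraries, were named with their values; others were named or counted. In each class, up to 4 members with the most marked libraries, then the best mean T69/71 rank, were chosen for fuller values. Sequence windows were chosen after their values were seen. No paired analysis is needed for counts of marked genes; the labels give replicate numbers without a shared source. Marking was tested on simulated peaks. Computing used Python 3.11.15, pandas 2.3.3, numpy 2.4.6, scipy 1.17.1 and matplotlib 3.10.9. Alternatives changed the window, the q filter, the use of starts alone, whole peaks in place of summits, the list length, shared ends and each library; a restriction to CpG-rich promoters was chosen after seeing the data.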

Additional observations from a re-analysis of the deposited data

How the results depend on the processing

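The count of members marked in both T69/71 libraries, 39, was 33 with a window of 500 bp and 41 with 2 kb. It was 36 with −log10 q of at least 5, 39 with any base of a peak in place of the summit, 31 with lists of equal length, 30 of 57 with the annotated start alone and 27 of 44 among CpG-rich promoters, the last chosen after seeing the data. It was 23 without peaks near another gene end, and 41 to 42 with 1 library left out. The count in replicate 1 of S490/498, 32, was 23 of 44 among CpG-rich promoters, ranged from 25 to 35 under the other settings and was 19 without peaks near another gene end. For both S490/498 libraries the count was 1; it was 0 with −log10 q of at least 5, 0 with the annotated start alone, where Dnajc11 has no entry, 0 among CpG-rich promoters for the same reason, and 1 to 32 with 1 library left out. The folding list, 31 of 45, ranged from 22 to 32, and from 33 to 34 with 1 library left out. The antibody difference of 35.2 percentage points ranged from 26.8 with lists of equal length to 39.8 among CpG-rich promoters. It was 13.4 to 57.0 with 1 library left out. With the replicate number as a block it was 35.2, and pairing allows no exact p under 0.5. Among the HSP70 genes the count of 7 became 2 of 3 among CpG-rich promoters. Depth limits the peaks that rest on fewer than 10 fragments, among them those of Hspb7 and Dnajc2.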

Other observations

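Pseudogenes with the same symbol prefixes gave a contrast to the members. None of 16 such pseudogenes was marked in any library, while 1.02% and 1.19% of all 10609 annotated pseudogenes were marked with T69/71. With S490/498 it was 0.594% in replicate 1 and 0.0754% in replicate 2. At these shares a count of 0 among 16 says little.

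Members with linked functions did not always carry the same peaks. The ribosome-associated partners Hspa14 and Dnajc2 differed, with folds of 12.1, 12.7 and 10.1 at the former and 3.54 and 5.47 with no S490/498 peak at the latter. The endoplasmic members named here differed among themselves as well. Dnajb11 and Dnajb12 were marked in 3 libraries and Dnajc3 in both T69/71 libraries. Dnajc10 and Hspa13 were marked in replicate 2 of T69/71 alone. Dnajc1 was marked in none, although it had a summit 1240 to 1296 bp from its end in the first 3 libraries. The mitochondrial members Hspa9, Hspd1, Hspe1, Dnaja3 and Dnajc11 were all marked with T69/71 (both libraries) and S490/498 (replicate 1). Dnajc30 lacked the S490/498 peak and Dnajc19 was marked in 1 T69/71 library. Dnajc15, an import factor like Dnajc19, was not marked. These groupings were made after the values were seen.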
